A study of Mus musculus with 43 samples.

Results

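Transcripts of 8 cytotoxic granule genes were followed in transferred mouse CD4 T cells that met an antigen briefly, at several persisting levels, or not at all. The genes were taken from a list of names, chosen with earlier results of these data known. They were the granzymes Gzmk, Gzma, Gzmb and Gzmm, the pore former Prf1, the granule proteins Nkg7 and Srgn, and the protease Ctsw. Each was read through its single-symbol probe set, of which every member had exactly 1, so all 8 were measured among 22180 genes on 43 arrays. For Prf1 a further probe set, which carries several symbols, was not used.

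Cytotoxic lymphocytes kill by releasing secretory lysosomes, called lytic granules, onto a target cell. Perforin opens the target membrane, granzymes enter as serine proteases and cleave proteins inside, and the proteoglycan serglycin holds them in the granule until release. These genes are best known from CD8 T cells and natural killer (NK) cells, but CD4 T cells can express some of them, commonly under the T-box factors T-bet (Tbx21) and eomesodermin (Eomes). Granzyme K is often described in memory cells and in T cells under chronic antigen.

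The donor cells of every group were CD4 T cells with the transgenic AND T cell receptor, CD45.1+ and Rag2o/o, so a single receptor specificity without Rag2 was studied. In 7 of the groups they went into iMCC recipients, whose pair of transgenes lets doxycycline switch on an invariant chain carrying a moth cytochrome c (MCC) epitope in dendritic cells. These mice received an anti-CD40 antibody the day before transfer and 100 µg/ml doxycycline in the drinking water until day 3. From then on none recipients had 0, low recipients 10 and intermediate (int) recipients 100 µg/ml. Cells were taken on day 10 (none n = 5 arrays, low n = 5, int n = 4) or on day 30 (none, low and int, n = 5 each). In the off group (n = 5, day 30) the 100 µg/ml dose was stopped on day 10. The high group (n = 4, day 10) came from cMCC mice, which make the invariant chain with MCC constitutively in MHC class II positive cells and had 0 doxycycline; it has no day 30 counterpart because the cells die by apoptosis there. Naive cells (n = 5) spent 3 days in mice that lacked the transgenes and had 0 doxycycline. They therefore differ from every other group in recipient and in time as well as in antigen. From the iMCC groups they also differ in doxycycline, and the anti-CD40 antibody is stated above for the iMCC recipients only. High cells differ from the other day 10 groups in recipient strain, in the cells that present antigen and in doxycycline. Their antigen level cannot be told apart from these. Among the iMCC groups the antigen level was set by the doxycycline dose. Differences between antigen levels below are therefore also differences in drug dose, and antigen and drug cannot be told apart there.

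Cells were sorted as CD4+CD90.2+CD45.1+. The day 10 cells were sorted 2 times and mixed, and those of day 30 were obtained in later sorts; the 2 days therefore cannot be told apart from their sorts. The sources used here give neither the age of the mice nor whether the samples of a group are separate animals. The p-values thus reflect differences among the samples of a group, part of which may be technical. The log2 medians of the arrays ran from 3.28 to 3.44. The defining transcripts of the sorted cells (Cd4, Cd3e, Cd3g, Thy1 and Ptprc) averaged 10.29 to 10.92 on every array. Of 7 measured genes of other cytotoxic lymphocytes, Ncr1, the NK receptor NKp46 (group means 2.77 to 3.29), and Cd8a (2.99 to 3.31) lay near or below the array medians, while Cd8b1 (3.81 to 4.60), Klrb1c (4.07 to 5.86) and Tyrobp (3.70 to 6.21) were higher. The naive arrays varied most in markers of other cells: the mean of 10 neutrophil, monocyte and macrophage genes ran from 3.46 to 6.01 there against 3.07 to 4.49 on all other arrays, and that of 7 B and plasma cell genes from 3.25 to 5.28 against 3.11 to 3.86. Naive arrays 3 and 4 were high in the myeloid genes, with S100a8 at 10.70 and 10.18, and the calls of granule and pathway genes against naive cells named below are also given without them.

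Levels below are log2 signals, and a difference of 1 is a 2-fold change. Differences were tested in 1 limma model over all arrays, with p-values adjusted by Benjamini and Hochberg's method across the 22180 genes; calls are those under 0.05. Signals near the array medians are compressed, so the fold of a dim gene can be understated. Since the cells were measured in bulk, fewer cells making a transcript and less RNA per cell cannot be told apart.

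Before the values, the windows around 3 transcription starts are shown, from RefSeq (GRCm38.p6), 250 bases before to 50 after the annotated start. Gzmk and Nkg7 were the members with the widest spans of group means, and Gzma is the gene next to Gzmk on chromosome 13. The T-box motif GGTGTGA and the Runx motif TGTGGT, on either strand, are in capitals.
Gzmk, chr13:113180916-113181215, minus strand: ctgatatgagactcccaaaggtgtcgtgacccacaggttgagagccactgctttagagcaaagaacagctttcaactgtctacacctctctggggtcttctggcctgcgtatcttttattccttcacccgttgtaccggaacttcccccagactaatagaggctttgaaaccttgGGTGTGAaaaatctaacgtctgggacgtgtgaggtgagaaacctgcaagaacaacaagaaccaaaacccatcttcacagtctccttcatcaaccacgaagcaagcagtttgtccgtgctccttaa
Gzma, chr13:113100932-113101231, minus strand: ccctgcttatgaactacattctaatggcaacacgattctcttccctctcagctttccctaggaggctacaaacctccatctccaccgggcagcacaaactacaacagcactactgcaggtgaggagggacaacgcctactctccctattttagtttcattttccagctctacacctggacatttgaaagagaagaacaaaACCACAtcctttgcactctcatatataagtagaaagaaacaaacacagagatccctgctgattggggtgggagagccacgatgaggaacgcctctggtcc
Nkg7, chr7:43436888-43437187, plus strand: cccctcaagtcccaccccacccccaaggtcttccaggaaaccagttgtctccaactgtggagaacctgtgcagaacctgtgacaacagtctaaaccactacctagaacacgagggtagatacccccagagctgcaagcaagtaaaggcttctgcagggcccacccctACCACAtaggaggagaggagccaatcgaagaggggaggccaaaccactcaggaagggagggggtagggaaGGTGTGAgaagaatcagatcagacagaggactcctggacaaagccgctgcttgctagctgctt
The Gzmk window held a T-box match from 75 to 69 bases before the start and no Runx match. The Gzma window held a Runx match 50 to 45 bases before the start and no T-box match. Nkg7 held both, a Runx match 83 to 78 and a T-box match 13 to 7 bases before the start. Searched for along with the AP-1 motif TGANTCA, these letters occur in 3.98% (T-box), 16.8% (Runx) and 7.81% (AP-1) of 32851 windows of the same length, so a Runx match in particular is common. Entries were found for 7 of the 8 members, with 2 starts each for Gzmm and Srgn. Gzmb had 2 Runx matches and the only AP-1 match of the set, Prf1 had 1 Runx match, and 1 of the 2 Srgn starts had a Runx match while the other had none of the 3 motifs. The first Gzmm start had a Runx match and the second a T-box match. No match overlapped another, and a match describes letters only.

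**Figure D1:**
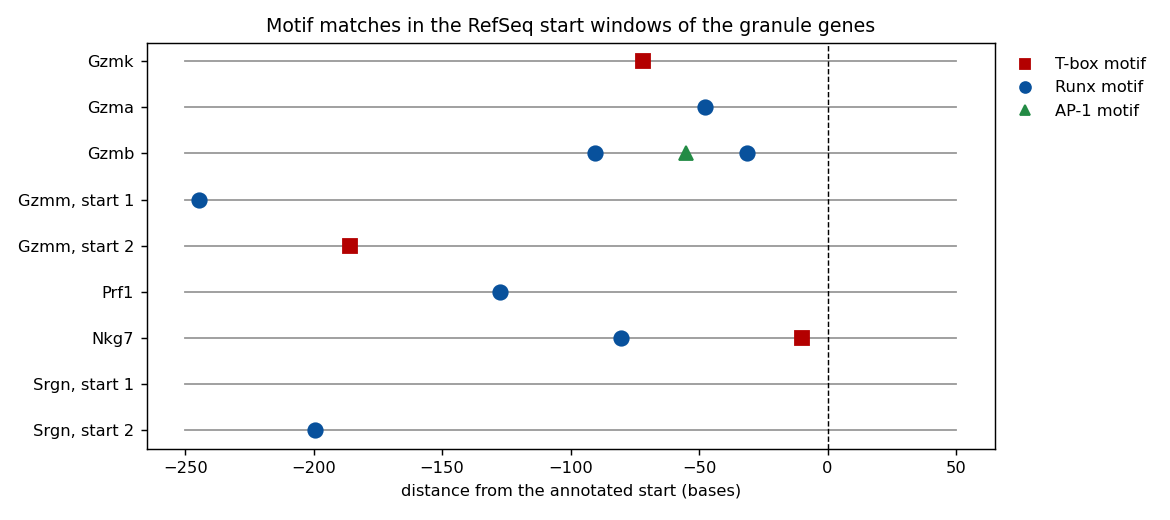
Matches to 3 motifs on either strand in the RefSeq start windows of 7 members, by distance in bases from the annotated start (dashed line). T-box matches (red squares) lie in Gzmk, Nkg7 and the second Gzmm start, and the only AP-1 match (green triangle) lies in Gzmb.

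The members did not move as a block. Gzmk was highest in int cells, Nkg7 separated antigen-experienced from naive cells, Srgn was highest in the high group, and Ctsw was low where Gzmk was high in int cells. Group means spanned 4.77 for Gzmk, 4.16 for Nkg7, 1.95 for Ctsw, 1.63 for Gzmb and 1.22 for Srgn. They spanned only 0.87 for Prf1, 0.81 for Gzma and 0.80 for Gzmm. Over the 14 differences between groups Gzmk was called in 8, Ctsw in 7, Srgn in 4, Nkg7 in 2 and Gzmm in 1, and Gzma, Gzmb and Prf1 in 0 (unadjusted p under 0.05 in 2, 7 and 0).

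**Figure D2:**
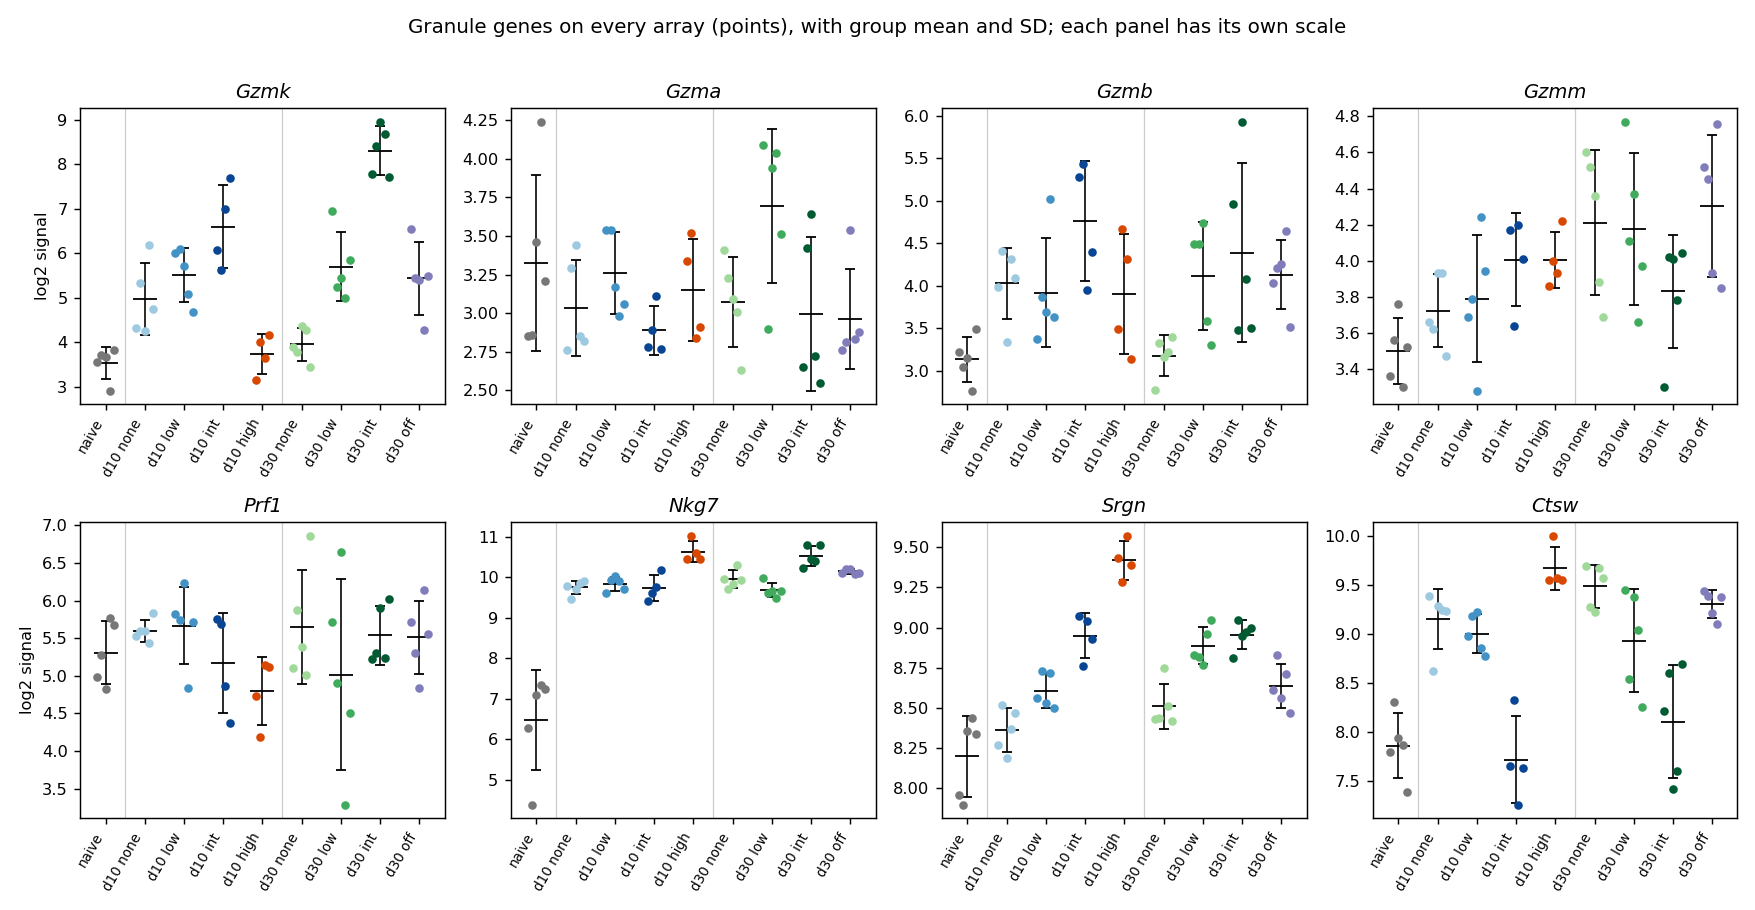
Log2 signal of the 8 members on each of 43 arrays (points), with the mean and SD of each of 9 groups, 1 panel per gene with its own axis. Gzmk climbs from none to int on both days, Nkg7 is low only in naive cells, and Ctsw dips in both int groups.

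Counted by comparison, 3 of 8 members were called between day 10 none and naive cells, where 3.3% of all genes were called; Nkg7, Ctsw and Gzmk were all higher in none cells. Between day 30 none and naive cells 3 of 8 were called, against 4.33% of all genes, and Nkg7, Ctsw and Gzmm were higher in none cells. Both comparisons use the same naive arrays.

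Low antigen on day 10 changed 0 of 8 members against none, where 0.00451% of genes, a single gene, were called at all; 1 member, Srgn, had an unadjusted p under 0.05 (0.0305). On the same day int antigen changed 3 of 8 against none, Gzmk and Srgn higher and Ctsw lower, with 1.24% of genes called. High cells, from the other recipient strain, differed from none cells in 1 of 8 (Srgn higher, with 5.25% of genes called). Directly between antigen levels, 1 of 8 differed between int and low (Ctsw; 0.541%), and 3 of 8 between high and int (Gzmk, Srgn and Ctsw; 2.99%). The day 10 comparisons share arrays with each other, as do those of day 30.

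On day 30, low antigen changed 1 of 8 members against none (Gzmk; 0.654% of genes) and int antigen changed 3 of 8 (Gzmk and Srgn higher, Ctsw lower; 2.21%). Int and low cells differed in 1 of 8 (Gzmk; 0.546%). After withdrawal on day 10, 2 of 8 differed from int (Gzmk and Ctsw; 0.464%) and 0 of 8 from none (0.266%). In the latter comparison limma's unadjusted p was under 0.05 for 2 members, Gzmk (0.000367) and Gzmb (0.00985). From day 10 to day 30, 0 of 8 changed in none cells (3.43% of genes; Gzmk, Gzmb and Gzmm had unadjusted limma p-values of 0.0113, 0.0202 and 0.0184) and 1 of 8 in int cells (Gzmk; 0.712%).

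**Figure D3:**
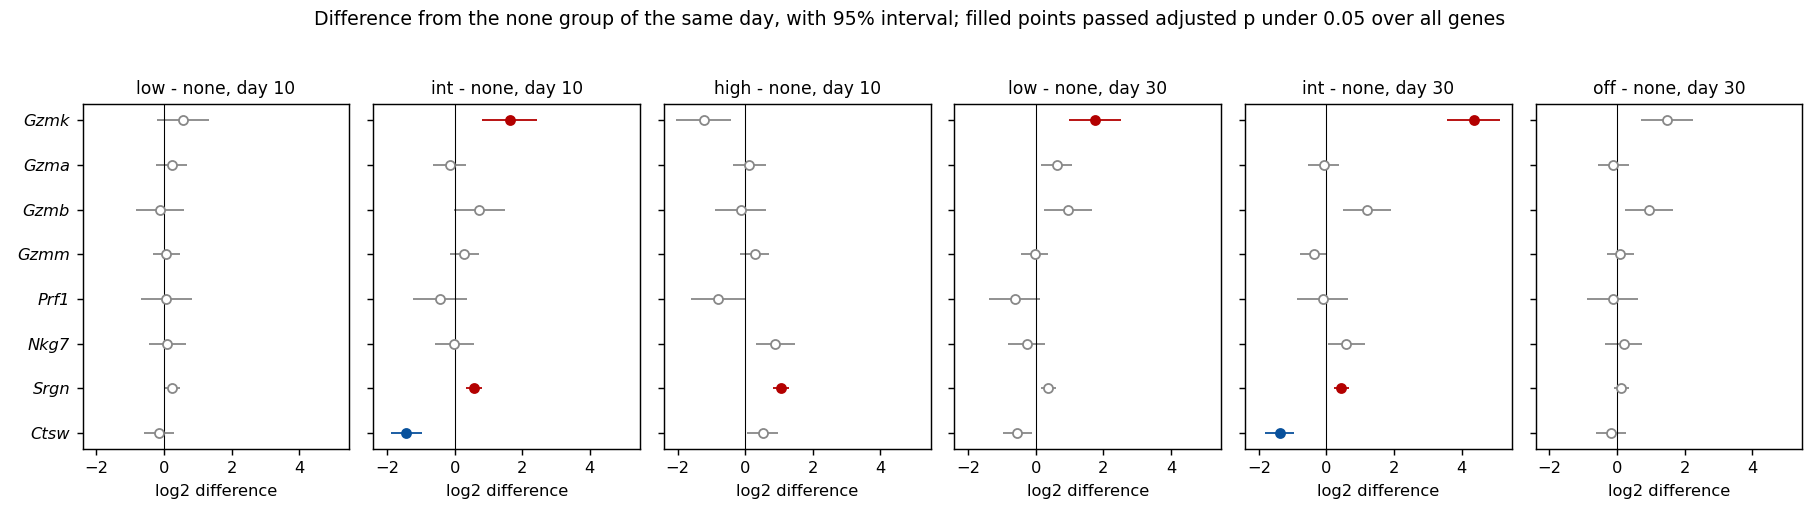
Log2 differences of the 8 members between antigen groups, with 95% confidence intervals of the limma fit; filled points were called. Gzmk on day 30 stands farthest from 0, at 4.36 for int against none, and Ctsw lies on the other side of 0 in int cells on both days.

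Gzmk encodes granzyme K, a tryptase-like granzyme. On day 30 its transcript rose stepwise from none to low to int antigen. On day 10 int cells exceeded none cells by less, and high cells, from the other recipient strain, had less than int cells. The naive arrays stood at 3.56, 3.71, 3.66, 2.91 and 3.83, close to the array medians. On day 10 the none arrays stood at 4.32, 5.32, 4.24, 6.18 and 4.74 and the low arrays at 6.01, 6.08, 5.71, 5.08 and 4.68. The int arrays stood at 6.06, 5.62, 6.99 and 7.69. None, low and int arrays overlapped in part on this day, and the none arrays alone covered a range of almost 2 log2 units. The high arrays, at 3.15, 4.00, 3.63 and 4.15, all lay below every none, low and int array.

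On day 30 the none arrays of Gzmk were at 3.89, 3.78, 4.37, 4.26 and 3.43, overlapping the naive arrays. The low arrays were at 6.95, 5.24, 5.44, 5.00 and 5.85, all above the none arrays. The int arrays, at 7.77, 8.41, 8.95, 8.68 and 7.70, were the only group whose range met no neighbour in the order of group means. The ranges nearly touched, since the highest day 10 int array stood at 7.69. After withdrawal the off arrays stood at 6.55, 5.45, 5.39, 4.26 and 5.49, below every int array, and 4 of the 5 were above all none arrays. From the lowest mean to the highest the order was naive (3.53 ± 0.36, SD, n = 5), day 10 high (3.73 ± 0.45, n = 4), day 30 none (3.95 ± 0.38, n = 5), day 10 none (4.96 ± 0.81, n = 5), day 30 off (5.43 ± 0.81, n = 5), day 10 low (5.51 ± 0.61, n = 5), day 30 low (5.70 ± 0.77, n = 5), day 10 int (6.59 ± 0.93, n = 4) and day 30 int (8.30 ± 0.55, n = 5). All neighbours in that order overlapped except the last pair.

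On day 30, Gzmk was 20.5-fold higher in int than in none cells (log2 difference 4.36 ± 0.38 SE, limma adjusted p = 1.74e-10; higher in 5 of 5 arrays). It was 3.36-fold higher in low than in none cells (1.75 ± 0.38, adjusted p = 0.0125) and 6.09-fold higher in int than in low cells (2.61 ± 0.38, adjusted p = 0.000112), with 5 of 5 arrays beyond in both. The call for low against none ended with array quality weights (adjusted p = 0.0637) and without day 30 low array 1, the highest of its group (1.44, adjusted p = 0.0681).

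On day 10, int cells had 3.1-fold more Gzmk transcript than none cells (1.63 ± 0.41, adjusted p = 0.0254), but only 2 of 4 int arrays lay above all none arrays. That call was lost without int array 3 or 4 or without none array 1, 3 or 5 (adjusted p from 0.0666 to 0.237), and when only these 2 groups were in the fit (0.0662). Low and none cells differed by 0.55 ± 0.38 (95% interval -0.22 to 1.32, adjusted p = 1), and int and low by 1.08 ± 0.41 (adjusted p = 0.481). High cells lay 7.25-fold below int cells (-2.86 ± 0.43, adjusted p = 1.24e-05; lower in 4 of 4 arrays). Against none, the high arrays were all lower (-1.23 ± 0.41), but the adjusted p was 0.0686; with dim genes left out it was 0.0301.

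The effect of int antigen on Gzmk was larger on day 30 than on day 10. The difference of the 2 effects was 2.73 ± 0.56 (interaction, adjusted p = 0.0222), a test in which 0.0902% of genes, 20 in all, and 1 of 8 members were called. It fell short without day 10 int array 1 or 2, day 10 none array 4, day 30 int array 3 or day 30 none array 5 (adjusted p from 0.0556 to 0.115) and with only these groups fitted (0.0664). Its parts pointed opposite ways: Gzmk was 3.28-fold higher in int cells of day 30 than of day 10 (1.71 ± 0.41, adjusted p = 0.029), and in none cells stood 1.01 ± 0.38 lower (adjusted p = 0.134). The former call ended without day 10 int array 1 or 2 or day 30 int array 2, 3 or 4 (adjusted p from 0.0521 to 0.172) and with only these 2 groups fitted (0.0518). For low antigen the difference of the effects was 1.20 ± 0.54 (adjusted p = 0.869), with 0 of 8 members and 0.0316% of genes called; Gzmk and Gzmb had unadjusted p-values of 0.0324 and 0.0403.

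Off cells, whose antigen was withdrawn on day 10, had 7.33-fold less Gzmk than cells kept on it to day 30 (-2.87 ± 0.38, adjusted p = 1.09e-05; lower in 5 of 5 arrays). The off mean of 5.43 stood beside 6.59 in the int cells of day 10, with overlapping arrays; that difference was not tested. Off cells stood 1.48 ± 0.38 above none cells (adjusted p = 0.0906), a difference that passed the threshold without off array 4, the lowest of its group (1.77, adjusted p = 0.0236), and with dim genes left out (0.0448). The myeloid genes were also higher on the off arrays, whose mean over the 10 genes was 3.67 to 4.45 against 3.07 to 3.51 in none and 3.27 to 3.80 in int cells; their part in the Gzmk values was not tested. S100a8, a neutrophil protein, was called higher in off than in none cells (3.44, adjusted p = 0.0365).

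Against naive cells, Gzmk was 2.69-fold higher in day 10 none cells (1.43 ± 0.38, adjusted p = 0.0237; higher in 5 of 5 arrays). Without naive arrays 3 and 4 the difference was 1.26 and not called (adjusted p = 0.222), and it was also lost without naive array 4 (0.0952) or day 10 none array 2 (0.0713) or 4 (0.109). By day 30 the none cells stood 0.41 ± 0.38 above naive cells (95% interval -0.36 to 1.19, adjusted p = 0.643).

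Gzmb encodes granzyme B, which cleaves after aspartate and activates caspases in the target. It stayed near the bottom of the scale and was called in none of the tests. Naive arrays stood at 3.22, 3.05, 3.15, 2.77 and 3.49 and day 30 none arrays at 2.78, 3.33, 3.16, 3.22 and 3.40. On day 30 the int arrays, at 4.96, 3.48, 5.93, 4.08 and 3.50, and the off arrays, at 4.03, 4.21, 4.26, 4.64 and 3.52, were all above the none arrays. Int cells were the most scattered group (SD 1.05) and 2 of their arrays lay within 0.1 of the highest none array. The difference of int and none was 1.21 ± 0.35 (adjusted p = 0.0566; 0.0434 after quantile normalization), that of off and none 0.95 ± 0.35 (adjusted p = 0.264) and that of low and none 0.94 ± 0.35 (adjusted p = 0.254). On day 10, none, low, int and high means were 4.03 ± 0.42, 3.92 ± 0.64, 4.77 ± 0.71 and 3.91 ± 0.71 (SD), and all 4 groups overlapped. Int and none differed there by 0.74 ± 0.37 (95% interval -0.02 to 1.49, adjusted p = 0.593).

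Gzma encodes granzyme A, also a tryptase, and in the RefSeq table its gene lies beside Gzmk with no other protein-coding gene between them. Unlike Gzmk it stayed near the array medians in every group: group means lay between 2.89 and 3.70 and single arrays between 2.55 and 4.24. The highest mean was that of day 30 low cells, whose arrays stood at 4.09, 2.90, 3.94, 4.04 and 3.51. Against day 30 none cells, at 3.41, 3.23, 3.09, 3.01 and 2.63, this was a difference of 0.62 ± 0.23 (adjusted p = 0.244), with 4 of 5 low arrays above all none arrays. Day 30 int arrays, where Gzmk was highest, stood at 2.65, 3.42, 3.64, 2.72 and 2.55 for Gzma, overlapping none. The highest single value, 4.24, was that of naive array 4, an array with high myeloid genes.

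Gzmm encodes granzyme M, which prefers methionine-like residues. Its group means ran from 3.50 ± 0.18 in naive to 4.30 ± 0.39 in off cells, a narrow and dim range. It was called once, in day 30 none cells, whose arrays at 4.60, 4.52, 4.36, 3.88 and 3.69 set against 3.36, 3.56, 3.76, 3.30 and 3.52 in naive cells gave 0.71 ± 0.20 (adjusted p = 0.0282; 4 of 5 arrays above all naive arrays). The call was lost in 6 of 10 fits that left out an array (without day 30 none array 1, 2 or 3 or naive array 1, 4 or 5; adjusted p up to 0.0918), without naive arrays 3 and 4 (0.0803) and with only these 2 groups fitted (0.0897). No antigen comparison called it.

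Prf1 encodes perforin, without which granzymes do not reach the target cytosol. Its signal stood at a middling level in naive cells already, at 4.99, 5.28, 4.82, 5.77 and 5.68, and it was called in none of the 14 differences tested. Whether that signal exceeds the background of the probe set was not tested. Group means lay between 4.80 ± 0.45 (day 10 high) and 5.67 ± 0.51 (day 10 low). The day 10 none arrays were close together, at 5.53, 5.59, 5.59, 5.43 and 5.83, and all 4 high arrays, at 4.73, 4.19, 5.15 and 5.12, lay below them, but the difference was not called (adjusted p = 0.315). Day 30 low arrays were the most scattered, at 5.72, 4.91, 6.65, 3.29 and 4.5. In day 30 int cells, at 5.22, 5.30, 5.90, 5.24 and 6.02, perforin overlapped the none cells at 5.10, 5.87, 5.38, 5.01 and 6.86, in the comparison where Gzmk differed 20.5-fold.

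Nkg7 encodes a granule membrane protein of NK and T cells that takes part in granule release. It set all antigen-experienced groups apart from naive cells, whatever came after day 3. The naive arrays stood at 6.28, 4.39, 7.10, 7.34 and 7.25, a wide spread with array 2 far below the rest. Every other array lay at 9.42 or above. Day 10 none arrays were at 9.77, 9.47, 9.72, 9.86 and 9.91, and day 30 none arrays at 9.95, 9.70, 9.84, 10.30 and 9.94. The difference from naive was 9.67-fold on day 10 (3.27 ± 0.27, adjusted p = 5.16e-12) and 11.1-fold on day 30 (3.47 ± 0.27, adjusted p = 6.92e-13), with 5 of 5 arrays beyond on both days. Without naive arrays 3 and 4, the differences were 3.77 (adjusted p = 2.19e-13) and 3.97 (adjusted p = 4.29e-14).

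Among the antigen-experienced groups the Nkg7 means covered only 9.68 to 10.63. The high arrays were at 10.46, 11.02, 10.59 and 10.45 and the day 30 int arrays at 10.22, 10.79, 10.46, 10.41 and 10.79. Both groups lay above all none arrays of their day, except 1 day 30 int array below the highest none array. In the model of all groups these differences were not called: high against none gave 0.88 ± 0.29 (adjusted p = 0.0605) and day 30 int against none 0.59 ± 0.27 (adjusted p = 0.338). Day 30 int cells were above low cells in 5 of 5 arrays (0.85 ± 0.27, adjusted p = 0.192). High against none was called with arrays centred on their medians (0.0499), with dim genes left out (0.0262) and with array weights (0.0475). Fits of only the groups compared called these 3 differences (adjusted p of 0.00181, 0.0218 and 0.00375) and those of high against int (0.0150) and of int cells between the days (0.0263). The day 10 low and int means, 9.84 and 9.74, were within 0.1 of none.

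Srgn encodes serglycin, the proteoglycan of the granule matrix, which many blood cells make. It moved in small steps but with the smallest residual spread of the 8 members (SD 0.145). The naive arrays stood at 7.96, 7.90, 8.36, 8.44 and 8.34. On day 10 the none arrays were at 8.27, 8.52, 8.19, 8.37 and 8.47, the low arrays at 8.56, 8.73, 8.53, 8.72 and 8.50, and the int arrays at 9.07, 8.76, 9.04 and 8.93. The high arrays, at 9.43, 9.28, 9.57 and 9.39, lay above every other array of the series. The group means thus stood in the order of the antigen levels, although low and none overlapped and high cells came from the other recipient strain.

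For Srgn, high exceeded none 2.08-fold (1.05 ± 0.12, adjusted p = 6.67e-09) and int exceeded none 1.5-fold (0.59 ± 0.12, adjusted p = 0.00191), in all arrays of either group. High cells exceeded int cells by 0.47 ± 0.12 (adjusted p = 0.0201), a call that ended without int array 2 or 4 or high array 4 (adjusted p from 0.0516 to 0.102) and with only these 2 groups fitted (0.151). Low and none differed by 0.24 ± 0.11 (adjusted p = 1). On day 30 the int arrays, at 8.81, 9.05, 8.95, 8.97 and 9.0, and the low arrays, at 8.83, 8.82, 8.77, 8.96 and 9.05, all lay above the none arrays at 8.43, 8.44, 8.75, 8.51 and 8.42. Int against none was called (0.45 ± 0.11, adjusted p = 0.0149), though not after quantile normalization (0.0548) or with only the 2 groups fitted (0.0777), and low against none was not (0.38 ± 0.11, adjusted p = 0.0974; 0.0418 with dim genes left out). Int and low means were within 0.1 of each other. Off arrays, at 8.61, 8.83, 8.56, 8.71 and 8.47, stood 0.32 ± 0.11 below int arrays (adjusted p = 0.308).

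Ctsw encodes cathepsin W, a papain-family cysteine protease found mainly in cytotoxic T cells and NK cells. It was the member that fell under int antigen. Naive arrays stood at 7.80, 8.31, 7.94, 7.87 and 7.39. Both none groups were higher, with day 10 arrays at 9.39, 8.62, 9.28, 9.24 and 9.23 and day 30 arrays at 9.69, 9.27, 9.22, 9.67 and 9.57. The day 10 int arrays, at 7.65, 8.33, 7.26 and 7.63, overlapped the naive arrays, a difference that was not tested. Low arrays of day 10 stayed with none, at 8.98, 9.18, 9.22, 8.86 and 8.77, and high arrays were above none, at 9.55, 10.00, 9.57 and 9.55.

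Relative to naive cells Ctsw was 2.45-fold higher in day 10 none cells (1.29 ± 0.21, adjusted p = 6.26e-05) and 3.08-fold higher in day 30 none cells (1.62 ± 0.21, adjusted p = 9.18e-07), and without naive arrays 3 and 4 these differences were 1.32 (adjusted p = 0.00101) and 1.65 (adjusted p = 2.93e-05). On day 10 int cells had 2.7-fold less than none cells (-1.43 ± 0.23, adjusted p = 6.86e-05) and 2.44-fold less than low cells (-1.28 ± 0.23, adjusted p = 0.000845). High cells had 3.86-fold more than int cells (1.95 ± 0.24, adjusted p = 2.12e-07), and their difference from none was not called (0.52 ± 0.23, adjusted p = 0.227). All arrays of the groups lay apart in each of these comparisons.

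On day 30 the int arrays of Ctsw stood at 8.21, 8.60, 7.42, 7.60 and 8.69, all below none and 2.6-fold lower on average (-1.38 ± 0.21, adjusted p = 3.05e-05). The low arrays, at 9.45, 8.54, 9.38, 9.04 and 8.25, overlapped both none and int. Int against low gave -0.83 ± 0.21 (adjusted p = 0.0626), which was called after quantile normalization (0.0421), with dim genes left out (0.0277) and without low array 2 or 5 or int array 2 or 5 (adjusted p down to 0.0163). Off arrays, at 9.44, 9.39, 9.21, 9.10 and 9.38, were above every int array by 2.3-fold (1.20 ± 0.21, adjusted p = 0.00138) and overlapped the none arrays (-0.18 ± 0.21, 95% interval -0.61 to 0.25, adjusted p = 0.813). The effect of int antigen on Ctsw differed by 0.05 ± 0.31 between the days (adjusted p = 0.992).

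Over the 9 group means, Gzmk and Ctsw had a Pearson correlation of -0.464 and Gzmk and Gzmb one of 0.785, while Gzmk and its neighbour Gzma had -0.252. The points are group means of the same arrays and are given as a description. The 5 genes whose group means were most like those of Gzmk, among 1888 genes spanning at least 1 log2 unit, were Rnf43 (r = 0.948), Slamf7 (0.934), Map3k5 (0.93), Etv6 (0.926) and Tspan3 (0.923). For Nkg7 they were Cenpb (0.95), S100a6 (0.947), Tbx21 (0.935), Nrp1 (0.931) and Sdcbp2 (0.929). For Gzmb they were Eif4enif1 (0.961), Asap1 (0.952), Chst11 (0.928), Cxcr5 (0.926) and Stim2 (0.921), and for the dim Gzma, among 1889 genes, Platr27 (0.947), Rnu12 (0.851), Asl (0.848), H2-Eb1 (0.826) and Mef2c (0.813). Each set is the top of a search over that many genes on only 9 points.

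Tbx21 and Eomes, 2 of the factors known to act on these genes, showed distinct patterns. Tbx21, which encodes T-bet, stood at 4.40 in naive cells and at 6.43 to 7.24 in all other groups, 2.58 ± 0.24 higher in day 10 none cells (adjusted p = 7.38e-11; 2.54 and 1.16e-08 without naive arrays 3 and 4) and called in no antigen comparison. Eomes, which encodes eomesodermin, was 3.15 ± 0.51 higher in int than in none cells on day 10 (adjusted p = 8.3e-05) and 4.11 ± 0.48 higher on day 30 (adjusted p = 8.5e-08). Its day 30 int arrays stood at 6.40, 8.49, 7.57, 7.46 and 7.14 and the none arrays at 3.33, 3.50, 3.41, 2.92 and 3.36. High cells had less Eomes than int cells (-2.88 ± 0.53, adjusted p = 0.000378) and off cells less than int cells (-2.30 ± 0.48, adjusted p = 0.0087), with off arrays split at 6.75, 6.86, 4.27, 3.27 and 4.43; the latter call was lost without int array 2 or off array 4 or 5 (adjusted p up to 0.0788). Naive cells differed from the Gzmk pattern, since Eomes stood at 5.17 there, above the day 30 none cells (none minus naive -1.87 ± 0.48, adjusted p = 0.0138). That call was lost without naive array 5 (0.0720) and without naive arrays 3 and 4 (0.113). Over the group means Gzmk and Eomes correlated at 0.789, Ctsw and Eomes at -0.797, and Nkg7 and Eomes at 0.00335.

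**Figure D4:**
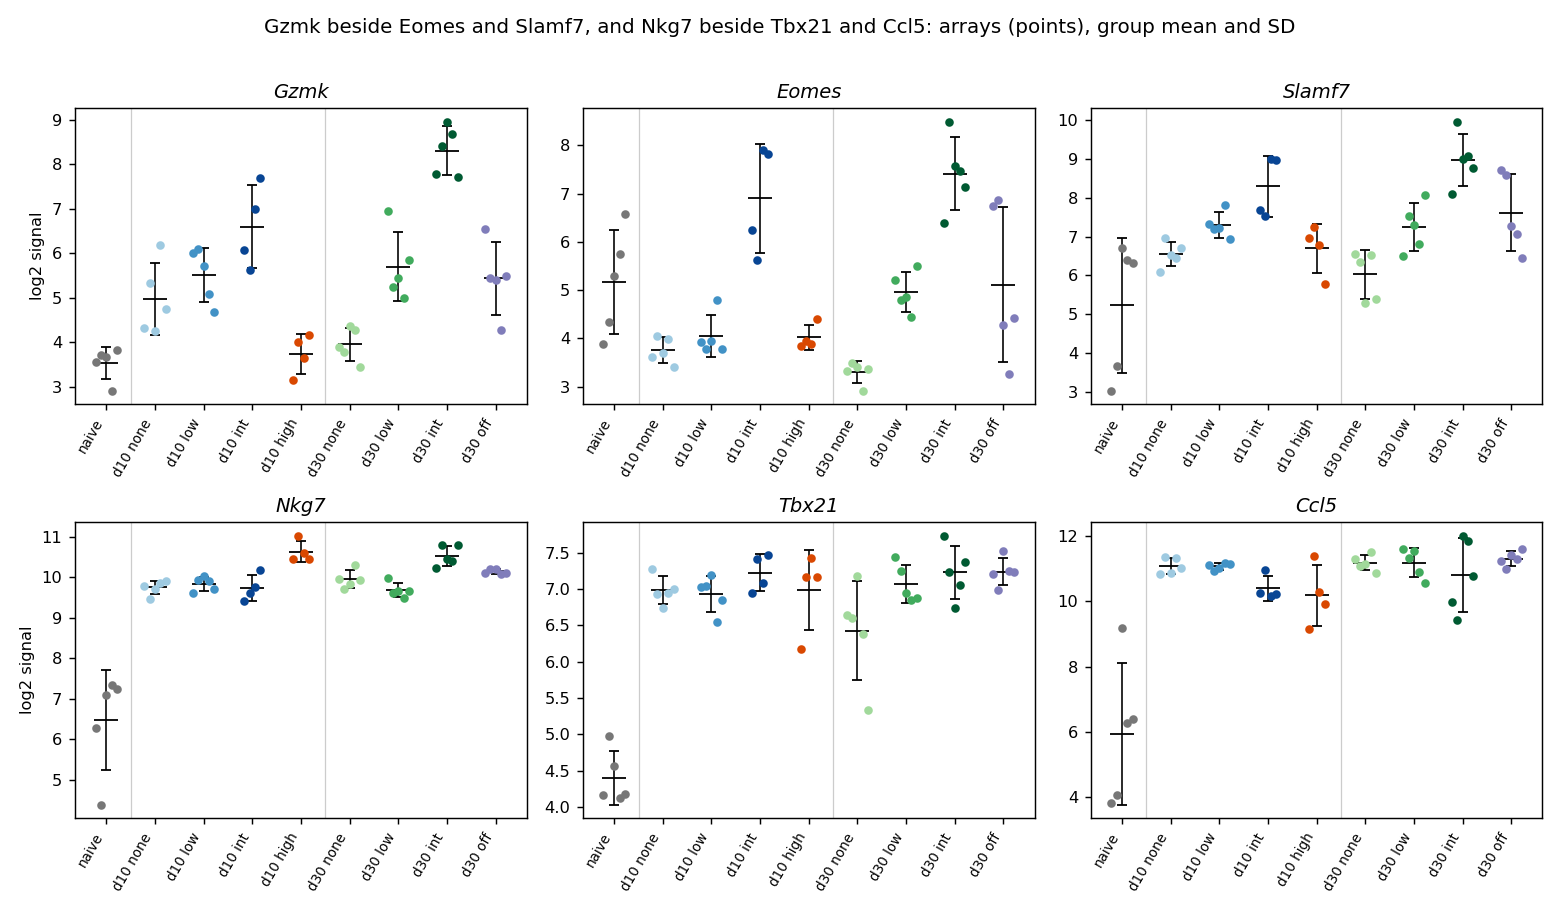
Log2 signal on each array with the group mean and SD for Gzmk, Eomes and Slamf7 (upper row) and for Nkg7, Tbx21 and Ccl5 (lower row), each with its own axis. The upper genes peak in int cells on both days, with Eomes also at 5.17 in naive cells, and the naive arrays of Nkg7 and Tbx21 lie below all others; for Ccl5, 1 naive array at 9.18 lies above the lowest high array at 9.16.

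Of the other transcription factors on the list, Runx3 was higher in none than in naive cells on day 10 (0.81 ± 0.18, adjusted p = 0.00337) and day 30 (0.63 ± 0.18, adjusted p = 0.0282), but neither was called without naive arrays 3 and 4 (0.155 and 0.286). It was lower in high than in none cells (-0.68 ± 0.19, adjusted p = 0.0204; 0.157 without high array 2) and in day 10 int than in low cells (-0.77 ± 0.19, adjusted p = 0.0422). On day 30 it was lower than in none cells in both low (-0.70 ± 0.18, adjusted p = 0.0484) and int cells (-0.65 ± 0.18, adjusted p = 0.0342). The last 3 calls held in only 1 of 9, 2 of 10 and 3 of 10 fits that left out an array. Bhlhe40, a factor induced by receptor signalling, was higher in high than in none cells (3.26 ± 0.38, adjusted p = 2.83e-08) and in day 30 int than in none cells (1.38 ± 0.36, adjusted p = 0.0253; held in 5 of 10 fits that left out an array). Id2, an inhibitor of E proteins, was also higher in high than in none cells (1.39 ± 0.22, adjusted p = 2.37e-05). Hopx was higher in day 10 none than in naive cells (0.73 ± 0.17, adjusted p = 0.00561; 0.0127 without naive arrays 3 and 4), and Prdm1, which encodes Blimp-1, had group means of 3.82 to 4.20 and no call. Zeb2 and Zfp683 were not analysed here.

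In all, 48 of 51 listed genes of the wider cytotoxic pathway were measured. Like the members, they were chosen with earlier results of these data known, so their shares only describe the lists. Against naive cells 7 were higher and 3 lower in day 10 none cells (20.8% of those measured, beside 3.3% of all genes) and 6 higher and 3 lower in day 30 none cells (18.8%, beside 4.33%). Without naive arrays 3 and 4 these were 6 higher and 2 lower (16.7%, beside 1.52%) and 3 higher and 1 lower (8.33%, beside 2.68%). High against none on day 10 had 11 higher and 1 lower (25%, beside 5.25%; median difference over all genes 0.01). Int against none had 3 higher and 1 lower on day 10 (8.33%, beside 1.24%) and 7 higher and 2 lower on day 30 (18.8%, beside 2.21%). Low against none had 0 on day 10 by limma (3 with an unadjusted p under 0.05) and 1 higher and 2 lower on day 30 (6.25%, beside 0.654%). Off differed from int in 2 genes (4.17%, beside 0.464%) and from none in 1 (2.08%, beside 0.266%). Over the 16 tests these genes had 74 calls, of which 41 held in every fit without 1 array of the groups compared. The shares over all genes, here and beside the 8 members, include dim genes. Leaving dim genes out kept 6997 genes, and a larger share of those was called. The calls were then 860 in day 10 none against naive, 1273 in high against none and 531 in day 30 int against none. The 48 pathway genes were counted dim or not.

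**Figure D5:**
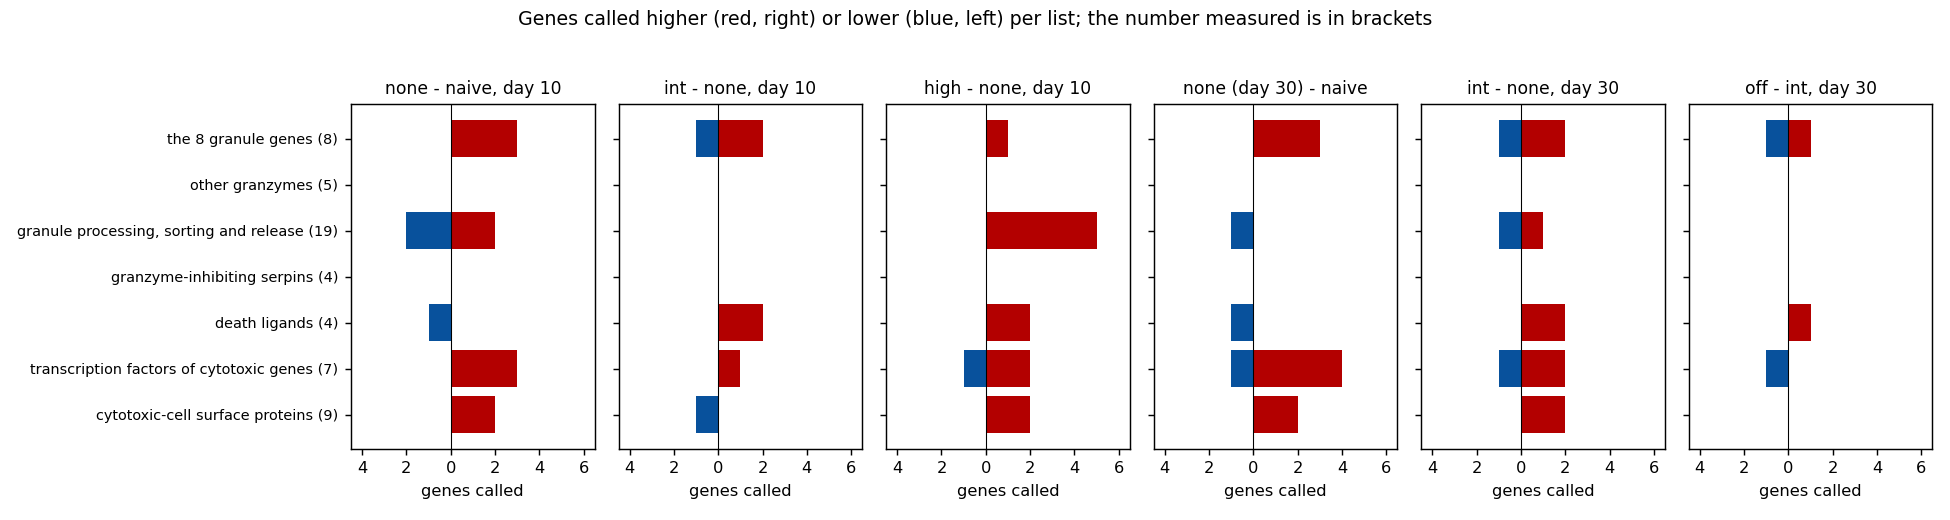
Number of genes called higher (red, right) and lower (blue, left) in each pathway list, for 6 comparisons; the number measured is in brackets. The 5 further granzymes and 4 granzyme-inhibiting serpins have no bar in any panel, and the genes of granule processing and release have their longest bar, 5 of 19, in high against none.

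Further granzymes stayed near or below the array medians: Gzmc, Gzmd, Gzmf, Gzmg and Gzmn had group means between 2.34 and 3.37. They had no call in any of the 16 limma tests, with at most 2 of the 5 at an unadjusted p under 0.05 in a test. Between 0.00451% and 5.25% of all genes were called in these tests, so 0 of 5 is near that share. At such dim signals small differences may be missed. Among the 19 genes of granule processing and release, 5 were higher in high than in none cells (5.25% of all genes were called there), led by the lysosomal membrane protein Lamp2 (1.24 ± 0.19, adjusted p = 1e-05), Ctsl (1.03 ± 0.27, adjusted p = 0.0114; 0.0686 without high array 2) and the granule fusion SNARE Vamp8 (0.94 ± 0.16, adjusted p = 8.22e-05). In int against none cells of day 10, 0 of these 19 were called by limma (3 at an unadjusted p under 0.05). There 1.24% of all genes were called, so 0 of 19 is near that share. Sytl2, a Rab27 effector that tethers granules, was lower than in day 30 none cells in low (-1.48 ± 0.24, adjusted p = 0.000214), int (-1.75 ± 0.24, adjusted p = 2.73e-06) and off cells (-1.73 ± 0.24, adjusted p = 2.85e-05). Its day 30 none mean of 5.36 was itself higher than the 4.13 of day 10 none cells (1.23 ± 0.24, adjusted p = 0.0021). Sytl2 was also lower in day 10 none than in naive cells (-1.52, adjusted p = 2.05e-05). Without naive arrays 3 and 4 that difference was -1.46 (adjusted p = 0.000896), and day 30 none against naive was not called (-0.23, adjusted p = 0.757). On day 10 low (4.38), int (3.75) and high cells (3.60) were not called against none. The effect of low antigen differed between the days by -1.72 ± 0.34 (interaction, adjusted p = 0.0236), a call that held in 12 of 20 fits without 1 array. Rab27a, the small GTPase of granule docking, was lower in day 30 than in day 10 none cells (-1.24 ± 0.20, adjusted p = 0.000342).

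Among 4 death ligands, Lta (1.56 ± 0.25, adjusted p = 8.73e-05) and Tnf (1.15 ± 0.27, adjusted p = 0.0124; lost without int array 3 or none array 1) were higher in int than in none cells on day 10, beside 1.24% of all genes called. Both were also higher in high than in none cells (0.86 ± 0.25 and 1.16 ± 0.27, adjusted p of 0.031 and 0.00334) and in day 30 int than in none cells (0.86 ± 0.24 and 0.88 ± 0.25, adjusted p of 0.0388 and 0.0494). Lta was higher in day 30 low than in none cells as well (1.04 ± 0.24, adjusted p = 0.0197). Of these 5 calls only that of Tnf in high cells held without each array in turn. Lta was lower in none than in naive cells (-1.30 ± 0.24 on day 10 and -1.17 ± 0.24 on day 30, adjusted p of 0.0003 and 0.00148; 0.000846 and 0.00305 without naive arrays 3 and 4). Fasl, the ligand of the death receptor Fas, was lower in high than in int cells (-1.67 ± 0.35, adjusted p = 0.00251). Of 9 surface and secreted proteins of cytotoxic cells, Slamf7 (2.95 ± 0.49, adjusted p = 9.45e-05) and Crtam (2.04 ± 0.35, adjusted p = 0.00016) were higher in int than in none cells on day 30, beside 2.21% of all genes called. Klrd1, the receptor chain CD94, went the other way on day 10 (-2.19 ± 0.44, adjusted p = 0.00209), with int arrays at 4.15, 4.70, 4.38 and 3.32 and none arrays at 5.93, 5.89, 6.80, 6.51 and 6.52. On day 30 Klrd1 was not called lower in int than in none cells. It was lower there in int than in low cells (-2.55, limma adjusted p = 0.000344), as was Klrk1 (-2.14, 0.00402). Both of these calls held in 10 of 10 fits that left out an array. Ccl5, a chemokine stored and released by cytotoxic cells, was 35.4-fold higher in day 10 none than in naive cells (5.15 ± 0.52, adjusted p = 1.21e-09). Its naive arrays spread from 3.81 to 9.18 (SD 2.17), and the fold was 62.1 without naive array 3 and 80.8 without naive arrays 3 and 4.

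Markers of other cells that carry granules moved with some of these comparisons. The mean of the 7 measured NK, CD8 and gamma-delta T cell genes lay between 3.48 and 4.28 in naive, 3.54 and 3.90 in high and 3.23 and 3.47 in day 30 int cells, against 3.45 to 3.74 and 3.24 to 3.74 in the none cells of day 10 and 30. Their part in the Gzmk values was not tested. In high cells Klrb1c, the NK1.1 antigen that some activated T cells also carry, was higher than in none cells (1.60, adjusted p = 0.000141), as was Klrc1 (2.56, adjusted p = 0.000168), and Thy1, a sort marker, was lower (-1.07, adjusted p = 4.19e-09). Their part in the Srgn difference was not tested. Tyrobp, a signalling adaptor of NK and myeloid cells, was higher in off than in int cells (1.91, adjusted p = 0.027) and lower in day 30 none than in naive cells (-2.15, adjusted p = 0.0018). Naive cells also had more Cd79a and H2-Ab1, of B and antigen-presenting cells, than day 10 none cells (none minus naive -2.12 and -2.01, adjusted p of 7.92e-05 and 1.62e-06). The Nkg7 and Ctsw calls against naive cells held without arrays 3 and 4. Naive array 5, kept in that fit, had means of 3.76 for B and plasma cell genes and 3.57 for dendritic cell genes. The none arrays had at most 3.55 and 3.26. The part of these markers in the Nkg7 and Ctsw differences was not tested.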

How the data were processed

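RNA of sorted CD4 T cells was amplified with the Ovation Pico WTA System V2 and labelled with the Encore Biotin Module, per the labels' protocols, and each sample was hybridized to 1 single-colour array. The deposited values are log2 signals per probe set (1.46 to 13.87). That range is the basis for reading them as log2, since how the probes were summarized and normalized is not given in the sources used here. Of 41345 probe sets, 23521 carried 1 symbol, 1814 several and 16010 none; the probe set with the highest mean per symbol was kept (22180 genes). A mean per group was fitted over all 43 arrays with limma 3.58.1 in R 4.3.3 (lmFit, eBayes with trend) and checked on simulated data. For replicated groups of 4 or 5 arrays, the number of arrays limits the precision. Named genes were all members, all listed factors and granzymes, up to 3 called genes per list and comparison with the largest change, and the 5 most alike genes for 4 members. The members and lists were chosen with earlier results of these data known. Alternatives were quantile normalization, median centring, only the groups compared, leaving out dim genes (no group mean over 5), the mean of all probe sets of a gene, array quality weights, a replicate block and leaving out each array in turn. Leaving out naive arrays 3 and 4, and leaving out each array for genes other than the members, were chosen after seeing the data.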

Additional observations from a re-analysis of the deposited data

Results flagged for a closer look

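Dixon's gap test at its 95% level marked 4 of 72 combinations of member and group, where chance marks about 1 in 20. Gzma stood at 3.54 in array 3 of the day 30 off group, with the other arrays between 2.76 and 2.88. Srgn stood at 8.75 in array 3 of the day 30 none group, with the others between 8.42 and 8.51. Ctsw stood at 8.62 in array 2 of the day 10 none group, below the others at 9.23 to 9.39, and at 10.00 in array 3 of the day 10 high group, above the others at 9.55 to 9.57. The effect of int antigen on Gzmk differed between days by an interaction test, at 2.73 more on day 30 than on day 10 (limma adjusted p = 0.0222).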

How the results depend on the processing

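Of 23 calls of members over the 16 tests, 15 held in all alternatives and in every fit without 1 array, and 0 reversed. The other 8, of Gzmk (5), Srgn (2) and Gzmm (1), are given with their values above. Counts of called members moved over 1.5 times as follows. High against none on day 10 went from 1 to 2 with centred arrays, with only its groups fitted and with array weights, and to 3 with dim genes left out. Low against none on day 30 went from 1 to 2 with dim genes left out and to 0 with array weights. Int against low on day 30 went from 1 to 2 with quantile normalization, only its groups and dim genes left out; off against none from 0 to 1 with dim genes left out; none on day 30 against day 10 from 0 to 1 with only its groups (Gzmb, -0.85, adjusted p = 0.0386); and the int interaction from 1 to 0 with only its groups. Without 1 array, the counts ran from 1 to 2 for high against none, 0 to 1 for low against none on day 30, 1 to 2 for int against low on day 30, 0 to 1 for off against none, 0 to 1 for int between days and 0 to 1 for the int interaction; high against none reached 2 without day 10 none array 3. Smaller moves were from 3 to between 2 and 4 for none against naive on day 10, 3 to 2 for none against naive on day 30, int against none on day 10 and high against int, and 3 to 4 for int against none on day 30. Without naive arrays 3 and 4, Srgn was called in day 30 none against naive (0.44, adjusted p = 0.0347). The causes were not tested, beyond the fewer arrays or genes that some settings leave.

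Counts over all genes moved more than 1.5 times in these comparisons: none against naive from 733 to between 337 and 1071 on day 10 and from 961 to 438 on day 30, low against none on day 10 from 1 to between 0 and 13, int against none from 276 to 581 and from 491 to 292, int against low from 120 to 354 on day 10 and from 121 to 45 on day 30, high against int from 664 to 345, low against none on day 30 from 145 to between 71 and 234, off against none from 59 to 18, off against int from 103 to 35, none between days from 761 to 353, int between days from 158 to 359, and the interactions from 20 to 10 (int) and from 7 to 16 (low). Leaving out 1 array also moved them: int against none on day 10 fell to 171 or 170 without int array 3 or 4; int against low to 78 or 79 on day 10 without the same arrays, and to 67 to 78 on day 30 without low array 1, 3 or 4 or int array 2. Low against none fell to 94 on day 30 without low array 5 and to 0 on day 10 without low array 1, 2, 3 or 4 or none array 1, 4 or 5. Off against int fell to 66 or 53 without off array 4 or 5, off against none to 24 or 29 without off array 1 or 2, none between days to between 366 and 463 without day 10 none array 1, 2, 3 or 5, and int between days to 75, 71 or 97 without day 10 int array 1 or 3 or day 30 int array 3.

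The replicate numbers did not pair the samples: 164 pairs with the same number in different groups had a median correlation of deviations of 0.00116 (-0.187 to 0.208), 5 of them over 0.1, and 11 of 43 arrays correlated best with their own number. With the replicate block, 3 members were called in int against none on day 30, as without it, and no count of called members changed; the all-gene count there was 486 against 491. Quantile normalization and centring moved the median of all genes by under 0.1. Signals near the array medians (Gzma, Gzmm, Gzmb and the further granzymes) lie near the floor of the scale, so small differences there may be missed.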
